A study of Rattus norvegicus with 8 samples.

Results

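The insulin-like growth factor (IGF) system of the rat neural lobe was described here through 10 genes: the ligands Igf1 and Igf2, the receptors Igf1r and Igf2r, and the binding proteins Igfbp2, Igfbp3, Igfbp4, Igfbp5, Igfbp6 and Igfbp7. They were chosen by symbol as the members of this family in the neurohypophysis table. All 10 were found among the 33294 genes listed, and all 10 were among the 17919 with enough signal to test. Neural lobe tissue, the hindmost part of the pituitary where vasopressin and oxytocin axons end, was taken from male Sprague Dawley rats 35 days old (the labels' control age) and 125 days old, with 4 RNA sequencing libraries at each age and no other treatment. Animals had been perfused with buffered saline under isoflurane, and libraries were made from poly(A)-selected RNA. Nothing in the labels says that every numbered sample was a different animal. The p-values therefore reflect variation among libraries, some of which could be technical.

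IGF-I and IGF-II are small secreted peptides related to insulin. Both signal through the tyrosine kinase receptor encoded by Igf1r, whereas the receptor encoded by Igf2r, which is also the large mannose 6-phosphate receptor, carries IGF-II to lysosomes for breakdown. The binding proteins hold the ligands outside cells and are themselves cut by proteases, and IGFBP-7 binds IGFs only weakly. In growing rodents much circulating IGF-I comes from the liver under growth hormone, while many tissues, brain included, make their own, and Igf2 is an imprinted fetal growth gene that stays active after birth in meninges, choroid plexus and vessels.

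The ligand genes carry the age difference described below, so the 250 bases upstream of their annotated starts are shown, from RefSeq on build GRCr8, with each CpG dinucleotide, the site of DNA methylation, in capitals. The deposited values were made on another build, rn7, so these windows serve only to show the sequence. RefSeq gives 1 window for Igf1, on the plus strand at chr7:24172282-24172531, and 2 for Igf2, on the minus strand at chr1:207253981-207254230 and chr1:207250476-207250725.
Igf1: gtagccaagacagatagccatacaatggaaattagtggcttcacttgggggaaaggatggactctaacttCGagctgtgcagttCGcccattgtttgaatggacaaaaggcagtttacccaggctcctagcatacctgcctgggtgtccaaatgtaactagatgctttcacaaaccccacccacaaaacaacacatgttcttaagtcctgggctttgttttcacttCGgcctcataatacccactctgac
Igf2, first window: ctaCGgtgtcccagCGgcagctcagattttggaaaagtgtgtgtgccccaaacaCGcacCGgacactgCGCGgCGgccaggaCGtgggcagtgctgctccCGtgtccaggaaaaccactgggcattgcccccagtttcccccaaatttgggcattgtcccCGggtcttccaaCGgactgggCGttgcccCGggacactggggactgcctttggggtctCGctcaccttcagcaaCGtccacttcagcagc
Igf2, second window: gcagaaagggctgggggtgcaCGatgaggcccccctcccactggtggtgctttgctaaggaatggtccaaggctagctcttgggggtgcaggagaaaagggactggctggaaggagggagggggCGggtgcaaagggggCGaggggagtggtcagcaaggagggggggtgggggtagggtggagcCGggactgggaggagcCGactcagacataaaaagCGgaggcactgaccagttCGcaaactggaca
The Igf1 window holds 3 CpG dinucleotides and the Igf2 windows 15 and 7, beside a median of 5 over 33469 RefSeq windows of this length. The Igf1r window holds 45. A search of both strands for 4 short motifs found 1 match in the ligand windows. This was the GC box, GGGCGG, once in the second Igf2 window, and 30.5% of all windows hold it. The TATA box letters TATAAA were in no ligand window and are in 12.9% of all windows. The STAT factor core TTCNNNGAA was likewise absent from them, and 7.67% of all windows hold it. The same was true of the FOXO-type site TGTTTAC, which 3.21% of all windows hold.

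Values are depth-normalised counts, gene reads that the authors divided by a size factor for each library. They do not correct for transcript length, so levels are compared between libraries and not between genes. Each library held 28429133 to 58696254 recovered reads, and the 10 genes rested on 382 (Igfbp6) to 49612 (Igfbp2) reads in a library. In a principal component analysis of the tested genes, age lay along the first component (53.4% of variance). On the second component (21.3%) 35-day replicate 3 scored -59.7, whereas the remaining libraries of that age scored 21.8 to 29.3. That library also had the highest mean level of 10 anterior lobe markers (hormone genes such as Gh1 and Prl and their regulators), at 13.72 on the log2 scale, against 8.78 to 11.84 in the other 35-day libraries and 7.17 to 9.27 at 125 days. Genes expected in the dissected lobe were present in every library. The pituicyte transcription factor gene Rax was at 1351 to 2611. The glial filament gene Gfap was at 2616 to 3689.7 at 35 days and at 869 to 1220.0 at 125 days. Genes used as intermediate lobe markers were there too: the hormone precursor gene Pomc was at 1957148 to 5272642 and Pax7 at 7697 to 13398. Pomc alone rested on 1847432 to 5393666 reads in a library, so all values come from tissue that held much Pomc RNA. Results below are given with all 8 libraries and, where it matters, without 35-day replicate 3.

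Both ligand genes were lower at 125 days, and with all 8 libraries weighted equally they were the members that passed the test. Igf1 was at 3768, 4022, 2946 and 3779 in 35-day replicates 1 to 4 and at 1149.9, 2191, 1257 and 1373 in 125-day replicates 1 to 4. The ages did not overlap, although 125-day replicate 2 lay well above the other 3 libraries of its age. The mean fell from 3629 ± 469.8 to 1493 ± 474 (SD, n = 4), 2.43 times higher at 35 days, with a log2 change of -1.32 (standard error, SE, 0.19, limma adjusted p = 0.00139). Igf2 was at 2655, 3291, 3296 and 4904 at 35 days and at 1370.3, 1353, 1279.7 and 1458 at 125 days. Here, too, the ages were separate, and the spread was unequal: the coefficient of variation was 27.1% at 35 days and 5.35% at 125 days. The mean fell from 3537 ± 960.2 to 1365 ± 73.1, 2.59 times higher at 35 days, a log2 change of -1.34 (SE 0.16, adjusted p = 5.02e-04). In bulk tissue, fewer cells of a type and less RNA per cell cannot be told apart.

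The fall of the ligands held in every fit that was tried. Leaving out any 1 library gave log2 changes of -1.52 to -1.21 for Igf1 (adjusted p at most 0.00684) and -1.46 to -1.17 for Igf2 (at most 0.00286). Without 35-day replicate 3 the changes were -1.42 (SE 0.18) and -1.36 (SE 0.17). Within each library the log2 ratio of Igf1 to Igf2 ran from -0.38 to 0.50 at 35 days and from -0.25 to 0.70 at 125 days. That ratio differed between ages by 0.019 (SE 0.29, two-sided exact permutation p = 1, 70 arrangements, smallest possible p 0.0286), so no difference between the falls of the 2 genes was detected. Their libraries did not rank alike: Igf2 was highest in 35-day replicate 4 and Igf1 in 35-day replicate 2, and at 125 days only Igf1 was raised in replicate 2.

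**Figure D1:**
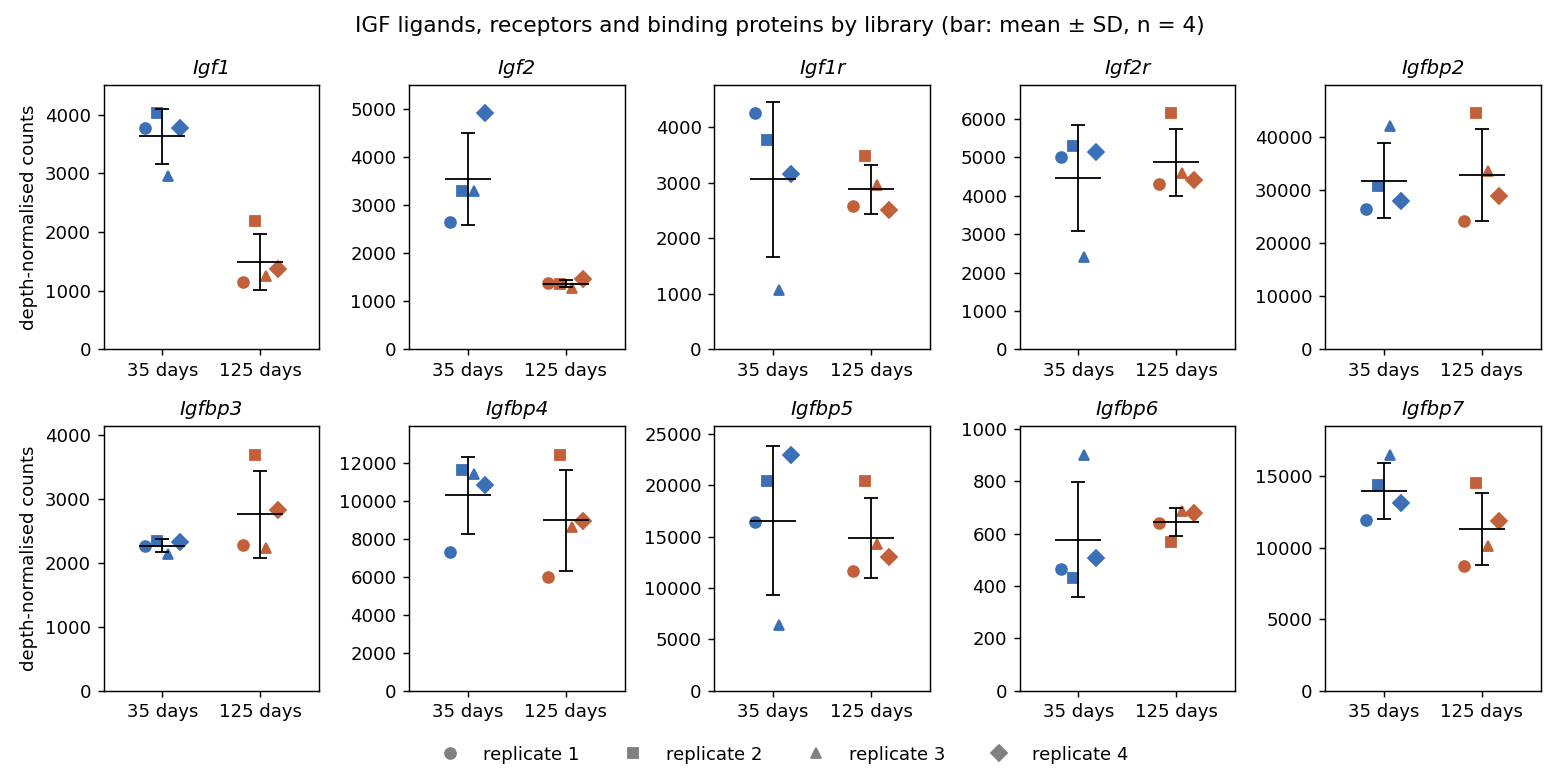
Depth-normalised counts (y axis, from 0, each panel on its own scale) of the 10 IGF genes in 4 libraries of 35 days (blue) and 4 of 125 days (orange), with marker shape giving the replicate number and black bars the mean ± SD. Igf1 and Igf2 are separate between ages (2946 to 4022 against 1149.9 to 2191, and 2655 to 4904 against 1279.7 to 1458), whereas the other 8 genes overlap.

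With 2 of 10 members called, the family stood near the background: limma called 17.7% of all genes tested, 8.85% higher and 8.87% lower at 125 days. Likewise 2 of 10 members did not overlap between ages, where 24.9% of all genes tested did not overlap (11.5% lower, 13.4% higher at 125 days). The members' median log2 change was -0.0022, beside 0.0072 over all genes. No member was called higher by limma, by edgeR (17.7% of all genes called) or by DESeq2 (23.4%) with all 8 libraries weighted equally, and 2 members had an unadjusted limma p under 0.05, Igf1 and Igf2. By count, the family was not set apart from other genes.

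Neither receptor gene passed the test with all 8 libraries weighted equally, and both had a low value in 35-day replicate 3. Igf1r, the signalling receptor, was at 4255, 3777, 1072 and 3152 at 35 days and at 2590.3, 3483, 2958 and 2519 at 125 days. Replicate 3 was at 0.288 of the mean of the other 35-day libraries, and the ages overlapped. The log2 change was 0.077 (SE 0.37, adjusted p = 0.914). Without replicate 3 it was -0.37 (SE 0.13, adjusted p = 0.0539), the opposite sign and short of the threshold. With all 8 libraries weighted by how well each followed the model, which gave replicate 3 a weight of 0.1, Igf1r was called lower (-0.40, SE 0.14, adjusted p = 0.0346), in a fit that called 44.0% of all genes (22.2% higher and 21.9% lower). Igf2r, the mannose 6-phosphate and IGF-II receptor, was at 4999.5, 5289.8, 2398 and 5141 at 35 days and at 4304, 6149.8, 4602 and 4423 at 125 days. Each age held 1 library apart from its other 3, low in 35-day replicate 3 and high in 125-day replicate 2. The log2 change was 0.18 (SE 0.24, adjusted p = 0.656), and -0.094 (SE 0.11, adjusted p = 0.566) without 35-day replicate 3.

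The insulin receptor gene Insr, whose product pairs with that of Igf1r in hybrid receptors, shared the low value in 35-day replicate 3. It was at 4138, 4058, 1871 and 3778 at 35 days and at 4208, 4611, 4569 and 4159 at 125 days (change of 0.41 in log2, SE 0.23, adjusted p = 0.252). Every 125-day library was above every 35-day library, by as little as the step from 4138 to 4159. Ratios within a library do not depend on the size factor. The log2 ratio of Igf1r to Insr differed between ages by -0.33 (SE 0.20, exact permutation p = 0.171, adjusted over 4 pairs 0.686). Without 35-day replicate 3 the difference was -0.51, with p = 0.0286 by the exact permutation test, the smallest it can give, and 0.0571 adjusted over the 4 pairs. That library held the lowest Igf1r and Insr values of its age. The log2 ratio of Igf1r to Igf2r differed by -0.10 (SE 0.20, exact permutation p = 0.629, adjusted 0.838).

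None of the 6 binding protein genes passed the test with all 8 libraries weighted equally, none had an unadjusted p under 0.05 in limma, edgeR or DESeq2, and their median log2 change was -0.0022. IGFBP-2 is made by glia and their precursors in the brain. Igfbp2 was at 26366, 30794, 42137 and 28002 at 35 days and at 24255, 44495, 33619.6 and 28893 at 125 days. The ages covered about the same range, each with 1 library above its other 3, and the log2 change was 0.032 (SE 0.21, adjusted p = 0.937). Igfbp5 lies next to Igfbp2 on chromosome 9 in the RefSeq gene order. Igfbp5, whose protein also binds matrix, was at 16452, 20378, 6389.9 and 22981 at 35 days and at 11677, 20437, 14310.2 and 13017 at 125 days. The 2 genes ranked the 125-day libraries in the same order, replicate 2 highest and replicate 1 lowest, but not those of 35 days. In 35-day replicate 3, where Igfbp2 was highest of its age, Igfbp5 was lowest, at 0.321 of the mean of the other 3. Its log2 change was -0.037 (SE 0.36, adjusted p = 0.960), and -0.44 (SE 0.18, adjusted p = 0.0909) without that library.

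IGFBP-3 is the main carrier of IGFs in blood, where it forms a complex with the acid-labile subunit. Igfbp3 had the smallest spread of the 10 genes at 35 days, a coefficient of variation of 4.28%, with 2272, 2351, 2137 and 2334. At 125 days it was at 2287, 3700.4, 2237 and 2832, so that replicates 2 and 4 were above all 35-day libraries and replicates 1 and 3 were among them (change of 0.25 in log2, SE 0.15, adjusted p = 0.287). The log2 ratio of Igfbp3 to Igfbp5 differed between ages by 0.29 (SE 0.40, exact permutation p = 0.486, adjusted 0.838). Without 35-day replicate 3 it differed by 0.67, at the smallest p the exact permutation test can give, 0.0286, likewise 0.0571 adjusted, so no pair passed after adjustment in either set of libraries. Igfbp1, the neighbour of Igfbp3 on chromosome 14 and mainly a liver gene, was at 0.399 ± 0.499 and 0.489 ± 0.978, too low to test. Igfals, which encodes the acid-labile subunit, was at 3.78 ± 2.82 and 8.53 ± 5.58 and was not tested either.

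Igfbp4 encodes a binding protein that is known as an inhibitor of IGF action until it is cut. It was at 7306, 11620.2, 11438 and 10871 at 35 days and at 5972, 12452, 8624 and 8927 at 125 days, overlapping widely (change of -0.22 in log2, SE 0.22, adjusted p = 0.539). Igfbp7, which is strongly expressed in vessels, was at 11920.0, 14395, 16506 and 13126 and at 8729, 14542, 10084 and 11871. At 125 days replicates 1, 3 and 4 were below all libraries of 35 days and replicate 2 was not (change of -0.32 in log2, SE 0.17, adjusted p = 0.217). IGFBP-6 prefers IGF-II over IGF-I. Igfbp6 was at 465, 431, 903 and 508 at 35 days and at 641, 569.8, 688 and 678 at 125 days. All 125-day libraries were above 35-day replicates 1, 2 and 4 and below replicate 3. With all 8 libraries the log2 change was 0.22 (SE 0.21, adjusted p = 0.514). Without 35-day replicate 3 Igfbp6 rose, by 0.46 (SE 0.10, adjusted p = 0.00668), in a fit that called 30.7% of all genes tested (15.9% higher and 14.8% lower).

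**Figure D2:**
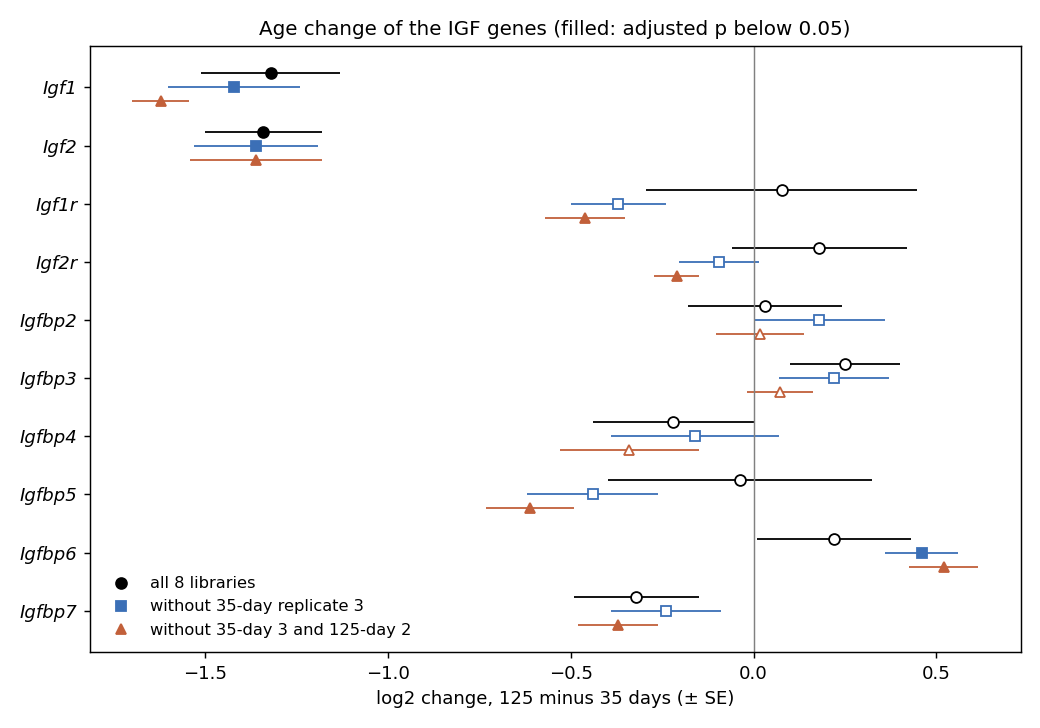
Log2 change of each IGF gene (x axis, 125 minus 35 days, bars ± SE) with all 8 libraries (black), without 35-day replicate 3 (blue) and without both that library and 125-day replicate 2 (orange), where filled symbols mark an adjusted p below 0.05. Both ligands are filled in all 3 fits, with Igf1 moving from -1.32 to -1.62. Igf1r moves from 0.077 to -0.46 and Igfbp6 from 0.22 to 0.52.

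Across members, the same libraries were often the extremes of their age. How often each library was the extreme among all genes was not counted, so these counts have no background beside them. The library 125-day replicate 2 had the highest value of its age for 8 of 10 members, Igf2 and Igfbp6 being the exceptions, and the lowest for Igfbp6. It was 1.74 times the mean of the other 125-day libraries for Igf1, 1.54 for Igfbp2, 1.51 for Igfbp3, 1.59 for Igfbp4 and 1.57 for Igfbp5, but 0.988 for Igf2. In the same library the anterior lobe marker level was the lowest of all 8 (7.17 on the log2 scale). Its intermediate lobe level was the lowest of its age (15.10 against 15.20 to 15.48), as was its proliferation level (6.75 against 6.81 to 6.95). Its levels of 12 endothelial markers (11.13, against 10.36 to 10.72 in the other 125-day libraries), 10 mural cell markers (9.82 against 9.17 to 9.39), 13 pituicyte markers (11.74 against 11.24 to 11.40) and 12 fibroblast markers (11.06 against 10.63 to 10.83) were the highest of their age. Its level of 12 microglia and macrophage markers was the highest too (9.63 against 9.07 to 9.52), while that of red cell markers was not extreme (8.06). The part of these cells in the high IGF values was not tested. Conversely, 35-day replicate 3 was lowest of its age for Igf1, Igf1r, Igf2r, Igfbp3 and Igfbp5 and highest for Igfbp2, Igfbp6 and Igfbp7. Its pituicyte (11.79 against 12.04 to 12.26) and mural levels (9.83 against 10.19 to 10.40) were the lowest of its age. So were its microglia and macrophage (9.47 against 9.60 to 9.81), intermediate lobe (14.64 against 14.89 to 15.01) and endothelial levels. Its anterior lobe and proliferation levels were the highest, and its fibroblast and red cell levels were not extreme. The part of these differences in its IGF values was not tested. With both libraries left out, a choice made after their values were seen, 6 members were lower at 125 days and 1 was higher, where 34.1% of all genes were called (17.2% higher and 17.0% lower). Besides the ligands these were Igf1r (change of -0.46 in log2, SE 0.11), Igf2r (-0.21, SE 0.061), Igfbp5 (-0.61, SE 0.12), Igfbp7 (-0.37, SE 0.11) and, higher, Igfbp6 (0.52, SE 0.094).

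**Figure D3:**
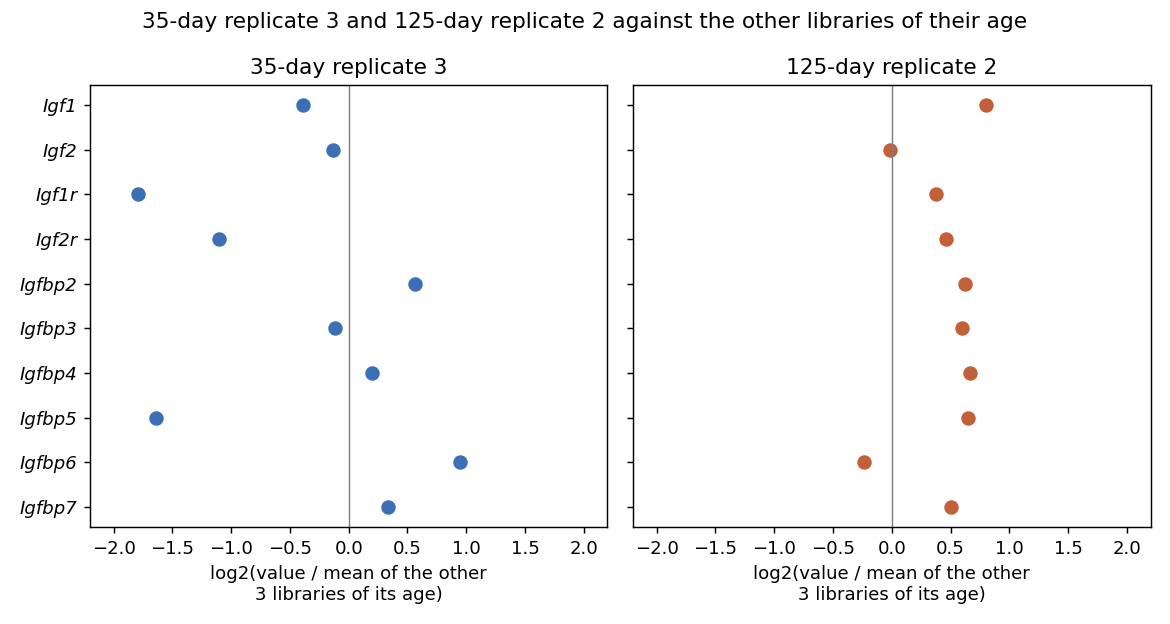
For each IGF gene, the log2 ratio of its value in 35-day replicate 3 (left) or 125-day replicate 2 (right) to the mean of the other 3 libraries of that age, with 0 marking no difference. The first library is low for Igf1r and Igfbp5 (0.288 and 0.321 of the others) and high for Igfbp6 (1.93), and the second is high for all members but Igf2 (0.988) and Igfbp6 (0.851).

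Marker genes of cell types in the lobe and the tissue beside it also differed with age. The counts below are from the limma fit with all 8 libraries, which called 8.87% of all genes tested lower and 8.85% higher. Of 12 fibroblast and meningeal markers 8 were lower at 125 days, and their mean log2 level ran from 11.49 to 11.76 in 35-day libraries and from 10.63 to 11.06 in 125-day libraries. Of 10 mural markers 8 were lower and 1 higher, and of 12 endothelial markers 7 were lower. Among 12 microglia and macrophage markers 4 were lower, with overlapping levels (9.47 to 9.81 and 9.07 to 9.63). Of 13 pituicyte markers 4 were lower: Gfap (-1.62 in log2), S100b (-1.39), Vcan (-1.32) and Aqp4 (-1.22). Of the 13, 12 had negative changes and 1 a positive change. All 12 proliferation markers were lower, at 9.40 to 9.52 and 6.75 to 6.95. All 4 red cell markers were lower as well. Of 10 anterior lobe markers 4 were called lower, and all 10 had negative changes (median -2.82 in log2). Their mean log2 level varied widely, from 8.78 to 13.72 at 35 days and from 7.17 to 9.27 at 125 days. Intermediate lobe markers were mixed: 2 of 6, the prohormone convertase gene Pcsk2 and Oacyl, were higher, and 4 were not called. Of those 4, Pomc (0.87 in log2) and Tbx19 (0.26) had positive changes, while Pax7 (-0.0066) and Drd2 (-0.032) were near 0. The mean log2 level of the 6 did not overlap between ages (14.64 to 15.01 and 15.10 to 15.48). With the anterior lobe marker level as a second term, 0 of the 6 were called. No marker of these lists was at 0 in all libraries, and their part in the fall of Igf1 and Igf2 was not tested. Fitted with the anterior lobe marker level as a second term, the log2 changes of Igf1 and Igf2 were -1.65 (SE 0.22) and -1.24 (SE 0.22), and that of Igf1r was -0.81 (SE 0.30, adjusted p = 0.103).

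The profiles nearest to each ligand over the 8 libraries were listed. A search of many genes is bound to return near matches, and no background distance was computed, so the list is descriptive. Among 12810 other named genes with a mean of at least 100, the profile nearest to Igf1, as the root mean square difference of log2 values centred on each gene's mean, was that of the gelatinase gene Mmp2 (0.087). Next came Lamc3, a laminin chain gene (0.12), and Gpr37, a receptor gene of glia (0.13). For Igf2 the nearest were Myb, a transcription factor gene of progenitor cells (0.17), Nat8l, whose enzyme makes N-acetylaspartate (0.17), and Gtse1, a cell cycle gene (0.18). Igf2 was in place 267 for likeness to Igf1, and Igf1 in place 143 for likeness to Igf2, both at 0.36.

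Other genes of the pathway were counted over 7 lists of 71 genes, of which 65 were tested. In limma 4 were higher and 4 lower at 125 days, with a median log2 change of 0.10. These shares were below the background of 8.85% and 8.87%. With 35-day replicate 3 left out, 11 were higher and 9 lower, near the 15.9% and 14.8% of all genes called in that fit. The lists were chosen with earlier results of these data known.

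At the Igf2 locus, H19, the imprinted non-coding RNA gene next to Igf2, was at 299, 822, 523 and 323 at 35 days and at 55.9, 74.3, 36.6 and 91.9 at 125 days. All 4 libraries of 35 days were above all of 125 days, and H19 fell by 2.86 on the log2 scale (SE 0.36, adjusted p = 6.06e-04), in the same direction as Igf2. Plagl1, an imprinted zinc finger gene reported in mouse to act on the Igf2 and H19 locus, rose 1.31 (SE 0.23, adjusted p = 0.00391), from 4519.6 ± 1428 to 10888 ± 1977. Imprinted genes of this system thus went both ways, since Grb10, below, also fell and Igf2r did not pass. The mRNA-binding protein genes Igf2bp2 (change of -0.33 in log2, SE 0.18) and Igf2bp3 (-0.47, SE 0.23) did not pass. Ins2, the next named gene after Igf2 in the RefSeq order, was singled out after its values were seen. It was at 525, 503, 822 and 556 and at 748, 725, 803 and 662 (change of 0.31 in log2, SE 0.16, adjusted p = 0.202), and rose by 0.47 (SE 0.088, adjusted p = 0.00351) without 35-day replicate 3.

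Among genes for the cutting of binding proteins, 1 of 6 tested was higher and 2 were lower, where 8.85% and 8.87% of all genes were. Stc2 and Stc1 encode stanniocalcins, which block the pappalysin proteases that cut IGFBP-4 and IGFBP-5. The pappalysin gene Pappa2 was low and variable, at 8.52 to 386 at 35 days, highest in replicate 3, and 3.91 to 79.4 at 125 days. Its log2 change was -2.01 (SE 1.14, adjusted p = 0.265). Stc2 was at 141, 238, 104 and 239 at 35 days and at 613, 553, 548 and 680.4 at 125 days, and rose 1.81 (SE 0.25, adjusted p = 0.00113). Its paralogue Stc1 went the other way, from 878 ± 134 to 547 ± 57.5 (change of -0.68 in log2, SE 0.13, adjusted p = 0.00688). The serine protease gene Htra3 fell by 0.60 (SE 0.13, adjusted p = 0.0130), while Htra1, whose protease cuts IGFBP-5, was at 6560.3 ± 463 and 5703 ± 1611 (adjusted p = 0.374).

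Among 13 receptor-proximal adaptor genes 1 was called, lower, where 8.87% of all genes were. This was Grb10, an adaptor that binds and restrains the IGF-I and insulin receptors. It was at 1660.4, 1824, 1681 and 1710.2 at 35 days and at 671, 748, 804 and 743 at 125 days, with little spread within either age. The log2 change was -1.21 (SE 0.088, adjusted p = 2.31e-05). Of the substrates that carry the receptor signal, Irs1 was at 714 ± 279 and 695 ± 61.0 (adjusted p = 0.903). Irs2 was at 3551 ± 1029.7 and 5449 ± 637 (change of 0.66 in log2, SE 0.21, adjusted p = 0.0536), short of the threshold with all 8 libraries and past it without 35-day replicate 3 (0.44, SE 0.11, adjusted p = 0.0134).

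Of 22 PI3K, AKT and mTOR genes, which relay the signal inside the cell, none was called by limma, edgeR or DESeq2. In limma 1 of the 22 had an unadjusted p under 0.05, and without 35-day replicate 3 the count called was 3, all lower, near the 14.8% of all genes called lower in that fit. Of 8 growth hormone axis genes none was called by limma or edgeR, 2 were by DESeq2, and 3 had an unadjusted limma p under 0.05. The growth hormone receptor gene Ghr was at 447 ± 30.4 and 372 ± 14.5 (change of -0.26 in log2, SE 0.10, adjusted p = 0.0986), with ages that did not overlap.

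Mannose 6-phosphate sorting, the other task of the Igf2r receptor, was represented by 7 genes. Of these 2 were higher and none lower, in a fit that called 8.85% of all genes higher and 8.87% lower. The adaptor genes Gga2 (from 2129 ± 175 to 3148 ± 387, log2 change 0.56, SE 0.11, adjusted p = 0.00677) and Gga3 (0.27, SE 0.081, adjusted p = 0.0439) rose. The Gga3 call was lost without any 1 library other than 35-day replicate 3 (adjusted p = 0.0628 to 0.137), and no such loss was found for the other 7 pathway genes called. Gga3 also lost its call in limma fits of all 8 libraries, among them those with no filter on low values (adjusted p = 0.0591) and no trend (0.0590). The same held with the replicate number as a block (0.109) and with the anterior lobe covariate (0.101). The smaller receptor gene M6pr was at 4395 ± 389 and 4709 ± 71.4 (adjusted p = 0.458). Without 35-day replicate 3 the count higher was 5 of 7, in the fit that called 15.9% of all genes higher. Of the 5 insulin and IGF relatives tested none was called by limma or edgeR and 1 by DESeq2, and 1 had an unadjusted limma p under 0.05. Among them Igfbpl1, a binding protein-like gene, was at 829, 1001, 1259.7 and 948 and at 507, 1027, 797 and 754 (change of -0.42 in log2, SE 0.21, adjusted p = 0.199).

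**Figure D4:**
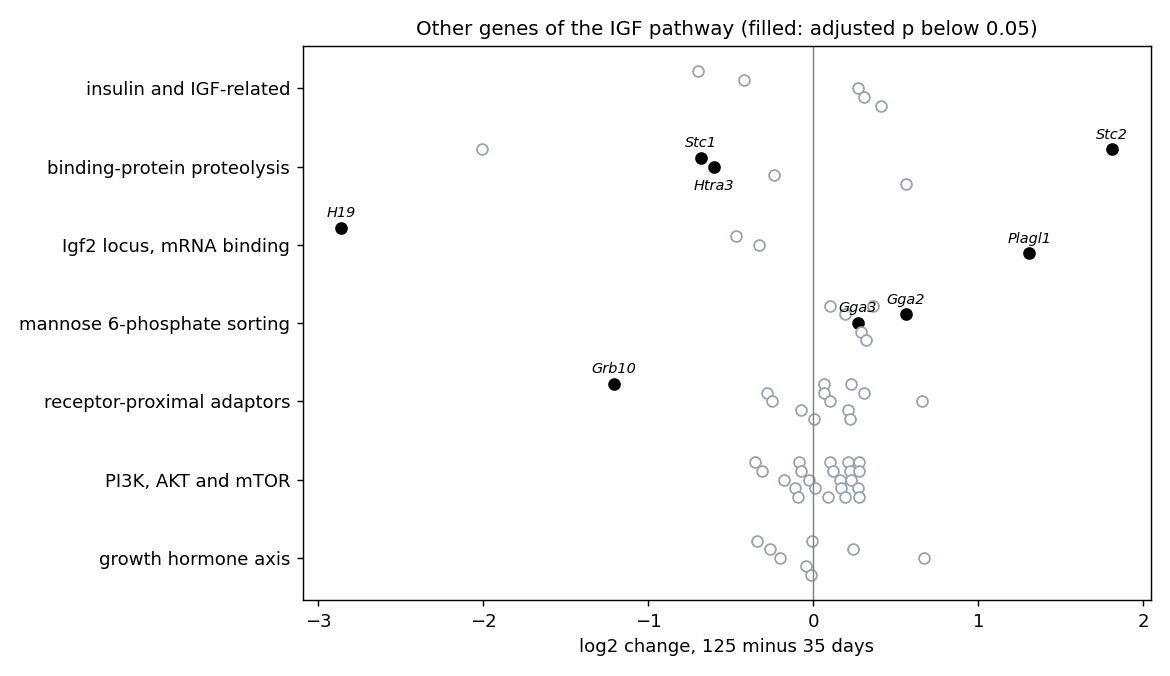
Log2 change (x axis, 125 minus 35 days) of the 65 tested genes of 7 IGF pathway lists (rows, points spread vertically for legibility), where filled and named points have an adjusted p below 0.05. The named points run from H19 at -2.86 to Stc2 at 1.81, and no PI3K, AKT and mTOR or growth hormone axis gene is filled.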

How the data were processed

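RNA of neural lobe samples, which also held intermediate lobe marker RNA, was sequenced in 8 libraries, grouped by the sample titles. The deposited table holds a depth-normalised signal per gene, counts divided by 1 size factor per library, as 100% of nonzero values are whole multiples of the smallest (tolerance 0.001 reads). Per the submitters' processing notes, which give no roles, the build was rn7 and the tools were DESeq2 1.34.0, featureCounts (Subread 2.0.1), SAMtools 1.13, HISAT2 2.2.1 and Trimmomatic 0.39. How strand was handled, and which annotation was used, is not given in the sources used here, so reads of overlapping or antisense genes cannot be told apart. Between libraries of 1 age the variance was 15.5 to 246 times that of read sampling, so none looked like a copy.

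Genes that reached 10 in 4 or more libraries were tested with limma 3.58.1 (R 4.3.3, intensity trend) on log2(value + 1), which understates the change of low genes. The model held age alone, p was two-sided and Benjamini-Hochberg adjusted over 17919 genes, with calls below 0.05. The fits were tested on simulated data with the same dispersion for every gene and no library set apart. The real libraries differ from that, so the simulation does not show how the calls behave here. Alternatives were edgeR 4.0.16 and DESeq2 1.42.0 on recovered reads, weighted libraries, no trend, 3 scalings, a minimum mean of 50 or no filter at all, pseudocounts of 5 and 0.5, the replicate block, the anterior lobe covariate and each library left out. The members and lists were chosen with earlier results of these data known. Named genes are all members, relatives and pathway genes picked by role, the calls in each pathway list, and the 3 profiles nearest to each ligand. Of the 71 pathway genes listed, 1 is not analysed here. Figures were drawn with matplotlib 3.10.9.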

Additional observations from a re-analysis of the deposited data

Results flagged for a closer look

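In 62 groups of 4 libraries (31 genes at each age), 5 values lay further from the rest than the 95% limit for the gap relative to the range. Chance gives about 1 in 20 for a single group. The genes share the same 8 libraries, so the groups are not independent and the count is not a test. All but 1 of the 5 values were in 35-day replicate 3. Igf2r was at 2398 there, against 4999.5 to 5289.8 in the other 35-day libraries, and Insr at 1871, against 3778 to 4138. Igfbp6 was high in that library, at 903 against 431 to 508, and so was Ins2, at 822 against 503 to 556. The remaining value was Igf2r in 125-day replicate 2, at 6149.8 against 4304 to 4602.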

How the results depend on the processing

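Igf1 and Igf2 kept their direction and call in every setting, at -1.65 to -1.21 and -1.46 to -1.17. The count of members lower was 2 throughout except with library weights (5) and with 35-day replicate 3 and 125-day replicate 2 both left out (6), and the count higher was 0 except for 1 in each of these and without 35-day replicate 3. Library weights gave that library 0.1 and 35-day replicate 2 3.76. Igf1r changed sign with weights (-0.40), edgeR (-0.087), DESeq2 (-0.090), the anterior lobe covariate (-0.81) and both libraries out (-0.46). Igf2r did so with weights (-0.15), the covariate (-0.36) and both out (-0.21), Insr with the covariate (-0.076), and Igfbp2 with equal library totals (-0.031). Calls were gained with weights and with both out by Igf1r (values above), Igfbp5 (-0.50 and -0.61), Igfbp6 (0.54 and 0.52) and Igfbp7 (-0.34 and -0.37). Leaving out 1 library gave ranges of -0.37 to 0.29 for Igf1r, -0.094 to 0.29 for Igf2r, -0.13 to 0.18 for Igfbp2, -0.44 to 0.17 for Igfbp5 and 0.10 to 0.46 for Igfbp6. For the pair differences it gave -0.19 to 0.17 (Igf1 to Igf2), -0.28 to 0.034 (Igf1r to Igf2r), -0.51 to -0.22 (Igf1r to Insr) and 0.093 to 0.67 (Igfbp3 to Igfbp5). All genes called numbered 1585 higher and 1589 lower, 3973 and 3919 with weights, 3077 and 3041 with both out, and 860 to 2846 and 1032 to 2649 without 1 library. The lowest counts came without 125-day replicate 1 (942 and 1036), 3 (916 and 1032) or 4 (860 and 1034). Pathway genes called were 4 higher and 4 lower, 13 and 18 with weights, 11 and 13 with both out, 7 higher with the covariate, 7 lower with equal totals, and 3 to 11 and 4 to 9 without 1 library. The cause of these shifts was not tested. With the replicate number as a block, the counts were 1290 higher and 1428 lower, and 0 and 2 for the members. Deviations of same-numbered libraries from their age means correlated with r of 0.0439, 0.167, -0.00019 and -0.116, and only number 2 correlated best with its own. These values show little shared deviation by number. They cannot exclude a pairing of the samples, which the labels do not describe. Igfals and Igfbp1, with at most 17 and 2 reads in a library, were too low to test.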
